A study of Mus musculus with 8 samples.

Results

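The genes described are 10 members of the liver X receptor (LXR) and peroxisome proliferator-activated receptor (PPAR) pathways of cholesterol efflux, measured by H3K27ac chromatin immunoprecipitation sequencing (ChIP-seq) in microglial nuclei of progranulin-deficient mice. They are the receptors Nr1h2 and Nr1h3, Pparg and Ppard, their partner Rxra, and the target genes Abca1, Abcg1, Mylip, Srebf1 and Ch25h. They were chosen by gene symbol, and every genomic region that the deposited table assigns to one of these symbols was taken. This gave 241 of the 129304 regions in the table and 10 of its 18707 named genes.

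H3K27ac, acetylation of lysine 27 on histone H3, marks active promoters and enhancers. Nuclei positive for PU.1, a transcription factor of myeloid cells, and negative for OLIG2 and NEUN, markers of the oligodendrocyte lineage and of neurons, were sorted from frozen hemibrains of C57BL/6 mice aged 2 years. Both genotypes, WT and GrnKO (loss of Grn, the gene of the lysosomal protein progranulin), were measured in 2 libraries each, with the nuclei of 2 mice pooled for every library, and all 4 libraries have a matched input. The labels name no treatment and give neither the sex of the mice nor how Grn was disrupted.

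LXRs are nuclear receptors that are activated by oxysterols, bind DNA as heterodimers with a retinoid X receptor such as RXRα, and turn on genes that move cholesterol out of the cell. PPARs are lipid-activated receptors with the same partner and control fatty acid uptake, storage and oxidation. In microglia and macrophages both families are known for linking the digestion of engulfed lipid to efflux and to restraint of inflammatory genes.

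The 3 promoters below are printed because the results turn on them: Abca1, whose promoter is acetylated in both genotypes, the downstream promoter of Srebf1, and Ppard, whose promoter acetylation differed. Each is the 250 bases before the annotated start, 5′ to 3′ on the gene's strand, from RefSeq (GRCm38.p6). The Abca1 stretch is chr4:53159896-53160145 (minus strand), the Srebf1 stretch is chr11:60210472-60210721 (minus strand) and the Ppard stretch is chr17:28232504-28232753 (plus strand). Capitals mark the closest match to an LXR element, which is a pair of AGGTCA half-sites in the same direction with 4 bases between them (DR4, searched on both strands).
Abca1: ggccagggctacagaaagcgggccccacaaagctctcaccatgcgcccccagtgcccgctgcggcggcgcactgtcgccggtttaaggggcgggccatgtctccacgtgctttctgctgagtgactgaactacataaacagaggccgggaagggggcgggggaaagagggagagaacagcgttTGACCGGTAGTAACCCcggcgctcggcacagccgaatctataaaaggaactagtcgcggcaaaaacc
Srebf1: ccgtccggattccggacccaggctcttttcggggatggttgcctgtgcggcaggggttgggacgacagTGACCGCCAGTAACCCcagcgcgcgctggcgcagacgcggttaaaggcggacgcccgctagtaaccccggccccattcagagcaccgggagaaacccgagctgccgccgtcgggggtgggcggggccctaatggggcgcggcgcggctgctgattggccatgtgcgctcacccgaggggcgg
Ppard: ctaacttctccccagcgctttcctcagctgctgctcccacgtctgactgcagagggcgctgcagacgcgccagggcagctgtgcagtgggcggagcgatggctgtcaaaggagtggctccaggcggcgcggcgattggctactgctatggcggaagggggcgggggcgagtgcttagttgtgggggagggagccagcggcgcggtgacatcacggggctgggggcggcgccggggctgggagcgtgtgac

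The capitals in Abca1 and Srebf1 read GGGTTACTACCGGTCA and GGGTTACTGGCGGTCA in the direction of the motif, and each differs from DR4 at 3 of its 12 fixed bases. The first lies 67 to 52 bases before the Abca1 start and the second 182 to 167 bases before the Srebf1 start. With 3 mismatches allowed, a setting added after the sequences had been seen, 21.9% of the 32851 RefSeq promoters of the same length (250 bases before to 50 after the start) hold a DR4 match, and 4 of the 15 promoters that the table of sequences used here holds for 9 of the 10 genes (all but Abcg1) do. With 2 mismatches allowed, 3.02% of all promoters and 0 of the 15 hold one. The 14 letters that the Abca1 and Srebf1 sites share (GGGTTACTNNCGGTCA) occur in 3 of the 32851 promoters, those of Abca1, Srebf1 and Fasn, the gene of fatty acid synthase. Letters chosen from 2 of those promoters had to be found there, so this count is a description. The DR1 element of PPARs (the same half-sites with 1 base between them, both strands, 2 mismatches allowed) was found in 1 of the 15 promoters and in 3.86% of all, and the exact half-site AGGTCA, which is also contained in DR1 and DR4, in 3 of the 15 and in 16.3% of all.

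H3K27ac libraries held 15491600 to 20030800 tags, and 49.4% of the tags of WT replicate 1 lay in the table's regions against 63.3% to 65.7% in the other 3 H3K27ac libraries and 4.02% to 4.79% in the inputs. WT replicate 1 therefore stands apart, and results are given without it where it matters. Values below are tags per 800 bp region, scaled to 10000000 tags per library and then by the trimmed mean of M-values (TMM), called scaled tags. The summed signal of the Grn regions was 1891 and 1938 in WT and 169.7 and 175 in GrnKO on the authors' scaling, which matches the labels. Xist regions held 81.7 and 128 of these tags in replicate 1 of WT and GrnKO and 0 and 5.49 in replicate 2, and regions of the Y chromosome held 131 and 138 in replicate 1 and 403 and 306 in replicate 2, so the replicate numbers go with the signal of the sex chromosomes in both genotypes. Microglial marker genes had 191 to 251 scaled tags per region, and 4 of 8 were lower in GrnKO, against 4.88% of all genes tested by summed signal. Neuronal markers had 13.6 and 15.4 per region in WT and 10.6 and 9.24 in GrnKO, with Syt1 lower (log2 change -0.95, adjusted p = 0.024). Oligodendrocyte markers had 8.45 and 7.46 in WT and 3.49 and 3.67 in GrnKO, with Mog lower (log2 change -1.27, adjusted p = 0.0013). Border macrophage markers had 19.4 and 19.8 in WT and 29.96 and 26.6 in GrnKO, with 1 of 5 higher. That was Ms4a7, with a sum of 166 and 147 against 558 and 425, and the other 4 had log2 changes from -0.76 to 0.14 with none past the threshold. Of 3 tested endothelial markers Flt1 was higher (log2 change 0.99) and Kdr (0.30) and Cldn5 (0.15) did not pass. Astrocyte markers had 71.2 to 75.6 per region, nearly all of it at Slc1a3, with none past the threshold. Monocyte and lymphocyte markers had 37.1 and 37.1 in WT and 29.5 and 23.2 in GrnKO. Of these only Ccr2 was tested, and it did not pass (log2 change -0.49). No marker in the table was at 0 in all 4 libraries. The part of these differences in the results below was not tested, and fewer nuclei of a type cannot be told apart from less acetylation per nucleus.

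At the threshold used (limma, Benjamini-Hochberg adjusted p under 0.05 over all regions), the regions of these genes that differed were all higher in GrnKO. Of the 241 regions, 213 passed the filter on low values and were tested, and 29 were higher in GrnKO, 13.6% against 6.8% of the 80728 regions tested in the whole table. None was lower, against 2.92% of all regions. At an unadjusted p under 0.05, limma gave 57 of the 213 higher (26.8% against 13.9% of all regions) and 14 lower (6.57% against 9.98%). At the adjusted threshold edgeR, DESeq2 and limma with a pseudocount of 5 each called 1 region lower, a region at the 3′ end of Rxra. Calls in either direction made up 9.71% of all regions tested. The 29 lie in 16 separate stretches, since many regions overlap and share tags, and belong to 8 of the 10 genes. Most belong to the receptor genes Rxra (10 of 44 tested), Pparg (6 of 14) and Ppard (6 of 9). No other gene had more than 3, so the excess over all regions rests on these receptor genes. A call in a design of 2 against 2 all but requires that the groups do not overlap. Of the 213 tested, 86 had both GrnKO libraries above both WT libraries (40.4% against 27% of all regions) and 40 had both below (18.8% against 25.6%). The median log2 change of the 213 was 0.20 against -0.0020 over all regions. The 28 untested regions held at most 12.5 scaled tags in any library.

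The number of called regions moved with single libraries: it was 53 (47 higher, 6 lower) without WT replicate 1, 47 (44 higher, 3 lower) without WT replicate 2, 15 without GrnKO replicate 1 and 19 without GrnKO replicate 2, the last 15 and 19 all higher. As shares of the regions tested in each fit these were 23.7%, 21.2%, 6.82% and 8.72%, against 15%, 15.5%, 2.4% and 3.45% of all regions. Of the 6 lower without WT replicate 1, 3 belong to Abca1 and 1 each to Abcg1, Mylip and Rxra, and of the 3 lower without WT replicate 2, 1 each to Abcg1, Mylip and Rxra. Without TMM, on the authors' scaling, 36 regions were called, all higher. That scaling moved the median log2 change of all regions to 0.22 and of all gene sums to 0.18, and the share of higher among all called regions from 70.0% to 95.2% and among all called sums from 66.2% to 90.8%, so changes are given relative to the TMM-centred median.

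Summed per gene, 4 of the 10 genes were higher, Pparg, Ppard, Rxra and Ch25h, and none was lower, at an unadjusted p under 0.05 either or with edgeR and DESeq2. Over the 15380 gene sums tested, 9.54% were higher and 4.88% lower (14.4% called in all). The median log2 change of the 10 sums was 0.45, and that of all sums was -0.0099. Without WT replicate 1 the same 4 were higher, with log2 changes of 1.41 for Pparg, 0.69 for Ppard, 0.47 for Rxra and 0.63 for Ch25h.

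**Figure D1:**
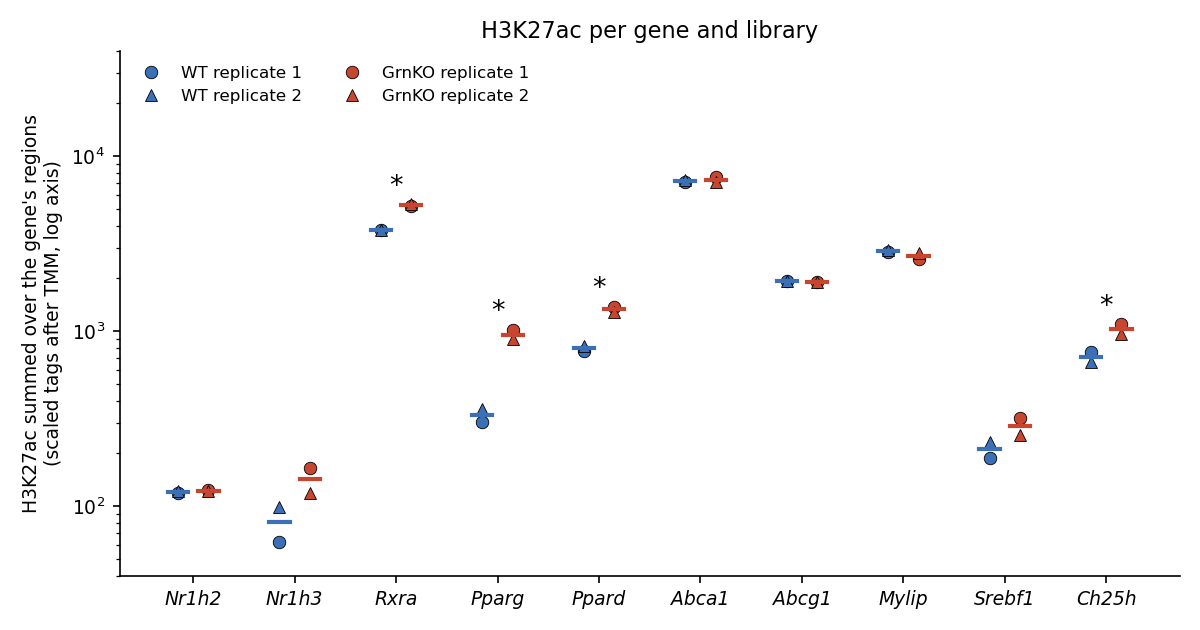
H3K27ac summed over the regions of each gene (y axis, scaled tags after TMM, log axis) in the 4 libraries (blue WT, red GrnKO; circles replicate 1, triangles replicate 2; bars are means of 2; asterisk, limma adjusted p under 0.05). The GrnKO points stand above the WT points for Pparg, Ppard, Rxra, Ch25h, Nr1h3 and Srebf1, of which the first 4 passed the test, while Abca1, Abcg1, Mylip and Nr1h2 show almost no gap.

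All regions are 800 bp long, so levels can be compared per region, within each genotype, over the regions the table assigns to each gene. In WT, Abca1 was highest with 127 and 131 scaled tags per region, followed by Rxra (75.9 and 75.7), Ppard (69.6 and 75.1), Abcg1 (69.0 and 69.3) and Mylip (67.8 and 69.3). Lower in WT were Ch25h (36.2 and 31.6), Nr1h2 (29.7 and 30.5), Nr1h3 (20.6 and 33.1), Pparg (20.2 and 23.9) and Srebf1 (17.2 and 21.2). Abcg1 overlapped Mylip, and each neighbouring pair from Nr1h2 to Srebf1 overlapped, so those orders are not resolved.

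In GrnKO the order was Abca1 (135 and 127), Ppard (126 and 116), Rxra (104 and 106), Abcg1 (68.3 and 68.1), Mylip (61.6 and 66.6) and Pparg (67.5 and 59.7). Ch25h (51.9 and 45.9), Nr1h3 (55.3 and 39.5), Nr1h2 (30.9 and 30.4) and Srebf1 (29.0 and 23.1) followed. Mylip overlapped Pparg and Ch25h overlapped Nr1h3. Pparg thus stood among the lowest genes in WT and level with Mylip in GrnKO, and Ppard and Rxra were in opposite order in the 2 genotypes. Both the first place of Abca1 and that change of order rest on the assignment. With the regions inside the annotated genes that the table assigns to neighbours, Ppard came first in both genotypes, with 128 and 145 scaled tags per region in WT and 153 and 158 in GrnKO. Abca1 then had 111 and 114 in WT and 117 and 109.95 in GrnKO, and Rxra, to which no region was added, lay below both in either genotype.

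Pparg, the receptor that drives lipid storage programs in adipocytes and macrophages, had the largest change of the 10. Its sum was 303 and 359 scaled tags in WT and rose to 1013 and 896 in GrnKO. The groups were far apart, with GrnKO at 2.88 times the WT mean and a log2 change of 1.53 (SE 0.14, limma adjusted p = 4.1e-06). The acetylation lay outside the annotated start: the promoter region at chr6:115361131-115361931 held 3.13 and 9.69 scaled tags in WT and 6.51 and 5.31 in GrnKO, which overlap. Of 14 tested regions 6 were higher, in 3 stretches. An upstream stretch of 1700 bp (chr6:115342914-115344614, intergenic, about 17.6 to 16.7 kb before the start) held all 3 of its regions among them.

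At the first of those 3 regions (chr6:115342914-115343714) WT had 27.8 and 12.05 scaled tags and GrnKO 135 and 114, a log2 change of 2.69 (SE 0.35, adjusted p = 8.9e-05). The next, which overlaps it (chr6:115343364-115344164), had 7.82 and 22.8 against 123 and 94.8 (log2 change 2.91). A region over exon 6 of 8 (chr6:115462796-115463596), 41.1 kb after the nearest annotated start, went from 3.91 and 7.86 in WT to 70.1 and 73.1 in GrnKO, the largest log2 change among the called regions (3.46, SE 0.45). Both GrnKO values stood well clear of both WT values at each of these 3 sites.

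A pair of overlapping regions in intron 6 of 7 completed the called set of Pparg, with log2 changes of 1.55 and 2.19. Both sit on a stretch where the input of WT replicate 1 alone held 346 scaled tags on the authors' scaling, against at most 44.9 in the other inputs. The part of that input signal in the result was not tested. The region with the highest mean, in intron 7 (chr6:115480066-115480866), had 92.7 and 112 in WT and 160 and 143 in GrnKO and missed the threshold (log2 change 0.57, adjusted p = 0.091). The change of the Pparg promoter relative to its distal regions (over 1000 bp from a start) was -1.46 on the log2 scale (limma adjusted p = 0.356), so a difference between the classes did not pass the test.

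Rxra encodes RXRα, the partner that both receptor families need. Its sum was 3794 and 3786 scaled tags in WT and 5192 and 5306 in GrnKO. The spread within each genotype was small beside the gap between them, and the log2 change was 0.47 (SE 0.079, adjusted p = 0.00086). On the authors' scaling the change was 0.66 and the call was lost (adjusted p = 0.106). Of 44 tested regions 10 were higher, all annotated to intron 1 of 9 of a transcript of the gene, in 5 stretches. The promoter region at chr2:27676704-27677504 had 41.5 and 49.2 in WT and 46.1 and 34.6 in GrnKO, and the groups overlapped.

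The strongest acetylation of the gene, in intron 1 at chr2:27716209-27717009, did not separate the genotypes, with 470 and 367 scaled tags in WT and 443 and 443 in GrnKO (log2 change 0.09, adjusted p = 0.741). A pair of regions before it, on the side of the start, did. At chr2:27713973-27714773 WT had 54.0 and 65.7 and GrnKO 228 and 173 (log2 change 1.72, SE 0.22, adjusted p = 8.7e-05). At chr2:27715014-27715814 they were 134 and 146 against 321 and 325 (log2 change 1.20). The groups did not overlap at either region.

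Farther into intron 1, 4 overlapping regions covering chr2:27727250-27729542 were higher, the first from 100.5 and 126 to 277 and 284 (log2 change 1.31, adjusted p = 0.00014). A region between these sites (chr2:27724811-27725611), named after its values had been seen, was low in WT at 10.9 and 5.76 and reached 69.6 and 54.0 in GrnKO, a log2 change of 2.79 (SE 0.44). A stretch of 3 regions 2.6 to 3.5 kb after the first start, chr2:27679384-27681089, also rose, by 1.32 to 1.78 on the log2 scale. At the 3′ end of Rxra the direction was opposite: chr2:27763201-27764001 had 133 and 150 in WT and 76.4 and 99.0 in GrnKO, a log2 change of -0.69 that lay at the threshold (limma adjusted p = 0.0503; 0.04999 with edgeR and 0.042 with DESeq2).

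Ppard, the most broadly expressed PPAR and a regulator of fatty acid oxidation, was the only one of the 5 receptor genes whose promoter was among the called regions. Its sum was 766 and 827 scaled tags in WT and 1381 and 1279.6 in GrnKO, a log2 change of 0.74 (SE 0.11, adjusted p = 0.00038). The groups did not overlap. Of 9 tested regions 6 were higher, 3 at the promoter and 3 in intron 2 of 7, with log2 changes from 0.67 to 0.86.

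The promoter region that covers the printed Ppard sequence (chr17:28232233-28233033) had 47.3 and 62.6 scaled tags in WT and 115 and 86.5 in GrnKO (log2 change 0.86, SE 0.26, adjusted p = 0.044). Just after the start, chr17:28232865-28233665 had 127 and 133 against 249.8 and 225 (log2 change 0.86, adjusted p = 0.0038). In intron 2, chr17:28246771-28247571, the region with the highest mean, had 188 and 191 against 322 and 343 (log2 change 0.81, adjusted p = 0.0021). Beside it, chr17:28247412-28248212 had 143.5 and 112 against 247 and 196 (log2 change 0.79, adjusted p = 0.014). Both GrnKO libraries were above both WT libraries in each of the 4. The promoter call was lost without WT replicate 1 (0.67), GrnKO replicate 1 (0.68) or GrnKO replicate 2 (1.08), the next without GrnKO replicate 1 (0.80), and those in intron 2 without GrnKO replicate 2 (0.77) for the first and GrnKO replicate 1 (0.64) for the second. The change of the promoter relative to the distal regions was 0.22 on the log2 scale (SE 0.22, limma adjusted p = 0.731).

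The Ppard sum rests on which regions the table assigns to the gene. Inside the annotated gene (chr17:28232754-28301469) lie another 19 regions that the table assigns to a neighbouring start, and 17 of them were tested with none called. Those include the strongest acetylation inside Ppard, in intron 3, where chr17:28294773-28295573 had 678 and 847 scaled tags in WT and 699 and 770.1 in GrnKO. With them the Ppard sum was 3830.1 and 4358 in WT and 4601 and 4740.4 in GrnKO, and the log2 change of 0.19 no longer passed (adjusted p = 0.166). The gain was thus measured at the promoter and in intron 2 and not in the 3′ part of the gene.

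**Figure D2:**
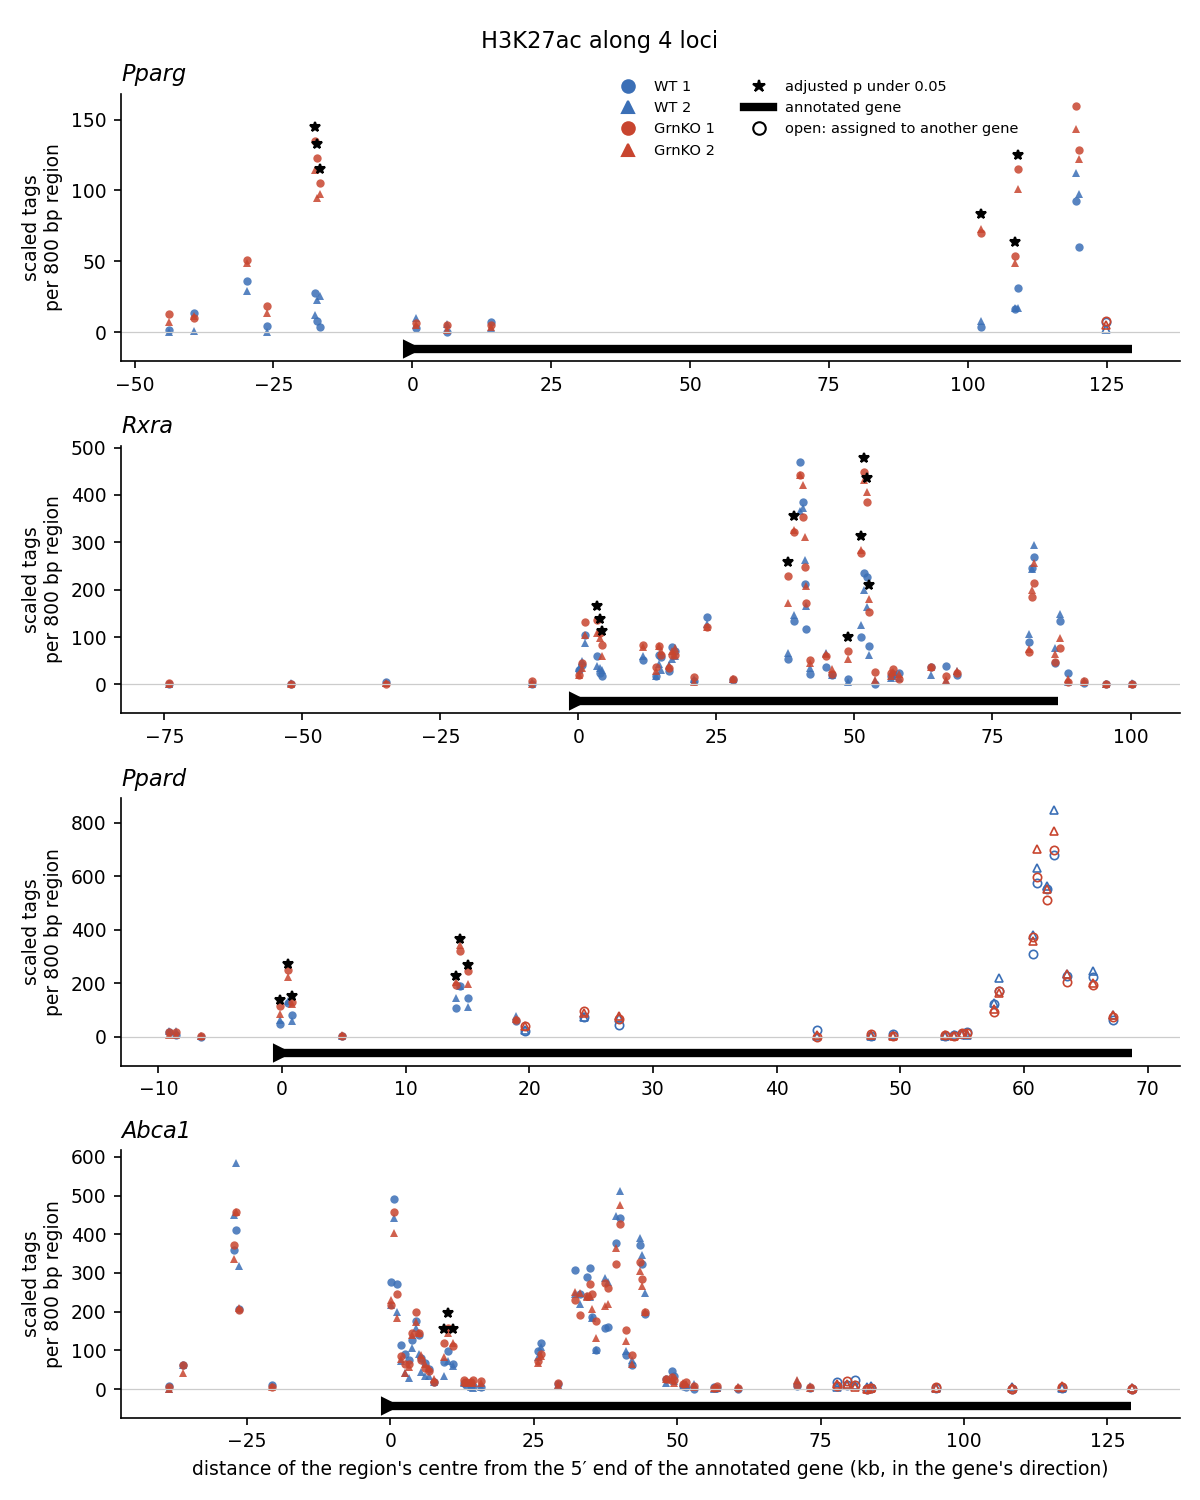
Scaled tags per 800 bp region (y axis) against the distance of the region's centre from the 5′ end of the annotated gene (x axis, kb in the gene's direction) for Pparg, Rxra, Ppard and Abca1; blue WT, red GrnKO, stars mark adjusted p under 0.05, open symbols are regions assigned to another gene, the bar is the gene. The called Pparg regions lie upstream and late in the gene, those of Rxra in intron 1 beside a peak with like values in all libraries, and none of the open symbols in Ppard, which include the highest values there, is starred.

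The LXR genes themselves carried few regions. Nr1h3 encodes LXRα, the LXR of macrophages and liver that is itself a target of LXR. Its sum was 61.9 and 99.3 scaled tags in WT and 166 and 119 in GrnKO. Both GrnKO libraries were higher, but the spread within genotypes was wide and the log2 change of 0.83 (SE 0.27) missed the threshold (adjusted p = 0.055). It passed when the replicate number was taken as a block (adjusted p = 0.014) and on the authors' scaling (1.02, adjusted p = 0.0076). It also passed over the distal regions alone (1.04, adjusted p = 0.034), without WT replicate 2 (1.19) and without GrnKO replicate 2 (1.08, adjusted p = 0.044), while without WT replicate 1 it was 0.50 (adjusted p = 0.152) and without GrnKO replicate 1 0.60 (adjusted p = 0.518). It did not pass with overlapping regions left out (0.67, adjusted p = 0.152), with edgeR (adjusted p = 0.066), with DESeq2 (adjusted p = 0.087), with no filter (adjusted p = 0.071), with either other pseudocount (adjusted p = 0.053 and 0.057) or with the regions inside the gene that the table assigns to neighbours (0.16, adjusted p = 0.571).

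The upstream regions of Nr1h3, 1.3 and 1.7 kb before its start, overlap each other. The nearer (chr2:91196026-91196826) had 24.6 and 31.2 in WT and 72.7 and 46.6 in GrnKO, and the farther (chr2:91196435-91197235) 21.9 and 49.2 against 72.7 and 58.6. The region just inside the gene (chr2:91194314-91195114) had 16.8 and 19.1 against 18.1 and 11.996. The upstream pair was thus higher in GrnKO with neither past the threshold (adjusted p = 0.058 and 0.097), and the start-proximal region overlapped between genotypes. The promoter change relative to the distal change was -1.27 on the log2 scale (limma adjusted p = 0.297). Over all 7324 genes with both classes, 0 ratios passed (929 at an unadjusted p under 0.05).

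Nr1h2 encodes LXRβ, the widely expressed LXR. It had 4 regions and a sum of 119 and 122 scaled tags in WT and 124 and 122 in GrnKO, nearly all of it at the promoter. The 4 sums lay close together and the genotypes overlapped (log2 change 0.026, SE 0.22, adjusted p = 0.961), though with overlapping regions left out the sign turned (-0.21, adjusted p = 0.637). The region nearest the start, which also has the highest mean (chr7:44553601-44554401), had 86.8 and 75.7 in WT and 69.0 and 68.7 in GrnKO. There both GrnKO libraries lay just below both WT libraries, with a log2 change of -0.23 (adjusted p = 0.623).

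Of the target genes, Abca1 and Abcg1 encode the transporters that load cholesterol onto apolipoproteins and lipoprotein particles. The sum of Abca1 was 7137 and 7339 scaled tags in WT and 7547 and 7097 in GrnKO, the largest of the 10 genes. The genotypes overlapped, with a log2 change of 0.016 (SE 0.074, adjusted p = 0.927). The region over the printed promoter and its DR4-like site (chr4:53159528-53160328) had 278 and 218 in WT and 217 and 231 in GrnKO (log2 change -0.14, adjusted p = 0.679).

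Within this flat total, 3 of 53 tested Abca1 regions were higher, a share below the 6.8% of all regions, all in intron 1 of 49, 9.2 to 10.8 kb after the start. At chr4:53149511-53150311 WT had 98.5 and 72.0 scaled tags and GrnKO 158 and 145 (log2 change 0.84, SE 0.22, adjusted p = 0.0197). At chr4:53148671-53149471 the values were 65.3 and 58.4 against 112 and 119 (log2 change 0.89). At chr4:53150295-53151095 they were 68.8 and 33.0 against 119 and 83.5 (log2 change 1.05, adjusted p = 0.042). All 3 had non-overlapping groups. Without GrnKO replicate 1 the calls were lost at log2 changes of 0.80, 0.95 and 0.81 in that order. Without GrnKO replicate 2 the first was lost at 0.91 and the second at 0.86, and without WT replicate 2 the third was lost at 0.55. The region with the highest mean, at -27.04 kb from the start (chr4:53186535-53187335), had 409.8 and 585 in WT and 458 and 457 in GrnKO, and the groups overlapped. Without WT replicate 1, the library that stands apart, it was called lower (log2 change -0.35, adjusted p = 0.028). So were the region that overlaps it (chr4:53185975-53186775, -0.61, adjusted p = 0.0031) and one inside the gene (chr4:53120243-53121043, -0.37, adjusted p = 0.041).

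The sum of Abcg1 was 1932 and 1942 scaled tags in WT and 1913 and 1908 in GrnKO. The GrnKO values were barely below the WT values (log2 change -0.02, SE 0.094, adjusted p = 0.928), and the sign turned on the authors' scaling (0.17). The promoter region (chr17:31057284-31058084) overlapped, with 84.5 and 100.0 against 101 and 80.1. A region 19.8 kb upstream (chr17:31037504-31038304) was higher in GrnKO, from 51.6 and 40.3 to 96.2 and 105 (log2 change 1.12, SE 0.26, adjusted p = 0.0099), and it was the only 1 of 26 tested to pass, a share below the 6.8% of all regions called higher. The call was lost without GrnKO replicate 1 (1.20, adjusted p = 0.103) or 2 (1.07, adjusted p = 0.156). Of the 26, 6 were lower at an unadjusted p under 0.05, all in intron 2 of 14, beside 9.98% of all regions, and none after adjustment. The region of the highest mean there (chr17:31075319-31076119) had 222 and 221 in WT and 160 and 169 in GrnKO (log2 change -0.43, adjusted p = 0.121).

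Mylip encodes the ubiquitin ligase IDOL, through which LXR lowers the LDL receptor. Its sum was 2846 and 2909 scaled tags in WT and 2585 and 2798 in GrnKO, a log2 change of -0.097 (SE 0.090, adjusted p = 0.555) that became 0.09 on the authors' scaling. A single region among 37 tested was higher, a share below the 6.8% of all regions. It lies 17.9 kb upstream (chr13:45371478-45372278), with 30.1 and 37.7 in WT and 120.2 and 105 in GrnKO. That is a log2 change of 1.71 (SE 0.27, adjusted p = 0.0005), and it passed without each library in turn. The region nearest the start (chr13:45389164-45389964) had 78.2 and 69.7 against 93.1 and 79.1 (log2 change 0.21, adjusted p = 0.649). Of the 37, 5 were lower at an unadjusted p under 0.05, beside 9.98% of all regions, and none after adjustment. Those 5 share tags, since all lie in 1 stretch of overlapping regions. In that stretch of 7 regions from intron 1 to intron 2 (chr13:45390377-45393811) both GrnKO libraries lay below both WT libraries at all 7, with log2 changes from -0.29 to -0.65. Within it the region with the highest mean (chr13:45390932-45391732) had 321 and 346 against 244 and 257 and did not pass (log2 change -0.41, adjusted p = 0.080), except with the replicate number as a block (adjusted p = 0.039) or without WT replicate 1 (adjusted p = 0.024).

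Srebf1 encodes SREBP-1, the LXR-induced activator of fatty acid synthesis. Its sum was 189 and 234 scaled tags in WT and 319 and 254 in GrnKO, with no overlap but a log2 change of 0.44 (SE 0.19) that missed the threshold (adjusted p = 0.142). The call was reached without WT replicate 2 (0.61, adjusted p = 0.018), while the change was 0.29 without WT replicate 1 (adjusted p = 0.319), 0.28 without GrnKO replicate 1 (adjusted p = 0.775) and 0.61 without GrnKO replicate 2 (adjusted p = 0.190). The region over the printed downstream promoter and its DR4-like site (chr11:60210125-60210925) had 13.7 and 14.4 in WT and 35.1 and 33.2 in GrnKO (log2 change 1.22, SE 0.42, adjusted p = 0.073). The overlapping region just upstream (chr11:60210716-60211516) was the only one called, from 3.13 and 9.43 to 25.2 and 26.99 (log2 change 2.04, SE 0.59, adjusted p = 0.035). That call, at a low level, was lost without GrnKO replicate 1 (2.10) or 2 (2.00). At another annotated start upstream the values lay the other way without passing. There chr11:60220261-60221061 had 64.5 and 49.0 against 55.4 and 40.8, which overlap (log2 change -0.24, adjusted p = 0.695). The region with the highest mean, which overlaps it (chr11:60219975-60220775), had 53.2 and 68.1 against 52.9 and 42.2, with both GrnKO libraries below both WT libraries (log2 change -0.34, adjusted p = 0.522). At the most upstream start, named after its values had been seen, 2 overlapping regions had both GrnKO libraries above both WT libraries without passing. One (chr11:60222120-60222920) had 19.2 and 33.0 against 55.2 and 43.6 (log2 change 0.93, adjusted p = 0.117), and the other (chr11:60222620-60223420) had 26.2 and 47.1 against 69.9 and 55.8 (log2 change 0.81, adjusted p = 0.136). The Fasn promoter, which holds the same letters, had 33.2 and 25.9 in WT and 15.3 and 11.5 in GrnKO at the region over the site (log2 change -1.09, adjusted p = 0.138), the opposite sign.

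Ch25h encodes cholesterol 25-hydroxylase, which makes the LXR-activating oxysterol 25-hydroxycholesterol. Its sum was 759.7 and 664 scaled tags in WT and 1090.5 and 964 in GrnKO, a log2 change of 0.53 (SE 0.12, adjusted p = 0.0093) with no overlap. The call was lost without GrnKO replicate 1 (0.45, adjusted p = 0.221). Of 18 tested regions 1 was higher, near the 6.8% of all regions, 53.8 kb downstream (chr19:34420965-34421765), with 58.3 and 51.6 in WT and 119.6 and 91.8 in GrnKO (log2 change 0.92, SE 0.25, adjusted p = 0.025), a call lost without GrnKO replicate 1 (0.75) or 2 (1.12). The region with the highest mean (chr19:34420667-34421467) overlaps it and had 83.7 and 64.7 against 137 and 104.5 (log2 change 0.69, adjusted p = 0.074). It passed on the authors' scaling (0.92, adjusted p = 0.044), with DESeq2 (adjusted p = 0.044), with the replicate block (adjusted p = 0.029) and without WT replicate 1 (0.88, adjusted p = 0.0039). The promoter region (chr19:34474781-34475581) had 30.9 and 33.5 against 56.3 and 34.4. The 4 overlapping promoter regions of Ch25h did not move together: over the single exon, chr19:34474063-34474863 had 39.1 and 30.1 against 11.0 and 21.2 (log2 change -1.11, adjusted p = 0.123). The promoter sum was 152 and 127 in WT and 158 and 125 in GrnKO, which overlap. The gain of the sum thus lay in the distal regions, which rose from 608 and 536 to 932 and 839 scaled tags. Their log2 change was 0.63 (limma adjusted p = 0.0052). These regions, the farthest 88.5 kb from the start, are assigned to Ch25h by nearest start alone. Whether they act on Ch25h or on a neighbouring gene was not tested. In 13 of the 18 tested regions both GrnKO libraries were above both WT libraries (27% in the whole table), and in 2 both were below (25.6%).

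**Figure D3:**
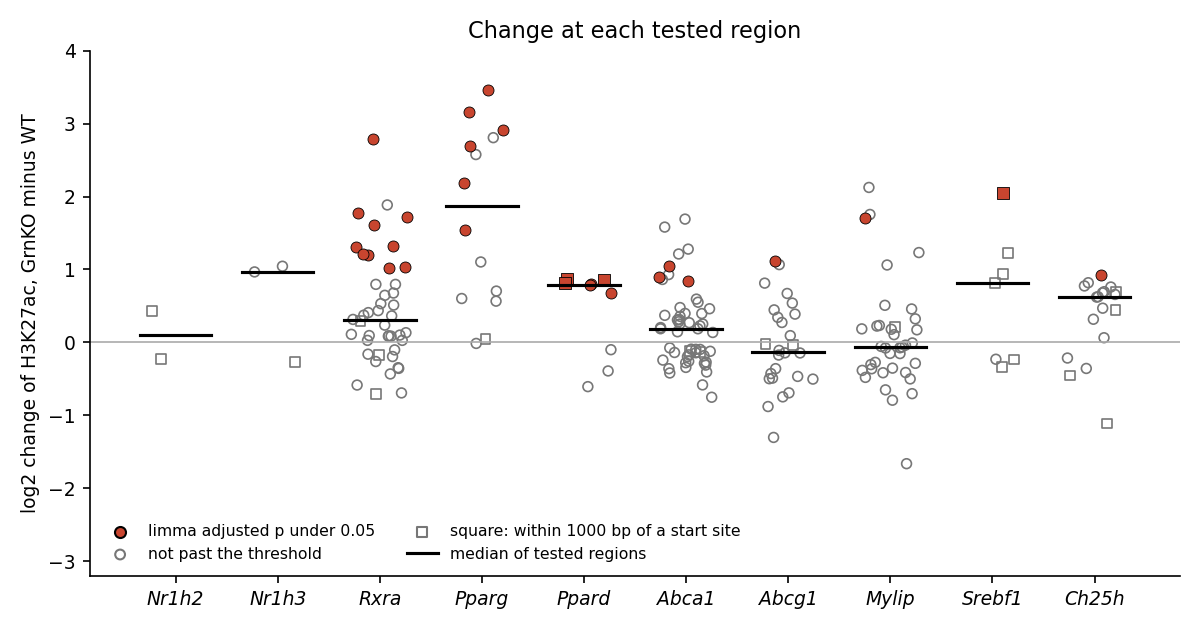
Log2 change of H3K27ac (y axis, GrnKO minus WT) at each tested region of the 10 genes; filled red, limma adjusted p under 0.05; squares, within 1000 bp of a start site; bars, median of the tested regions. The highest called points are Pparg regions, but its called changes run from 1.55 to 3.46 and overlap those of Rxra, which reach 2.79. Those of Ppard are close together, and the called regions of Abca1, Abcg1, Mylip and Ch25h are 1 to 3 points in otherwise broad columns around the median.

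Split by position, 4 of the 25 tested promoter regions (within 1000 bp of a start site) of these genes were higher, 16% against 3.57% of all promoter regions tested. Of the 188 distal regions tested 25 were higher, 13.3% against 7.99% of all distal regions. Of the 4 called promoter regions, 3 are overlapping regions of Ppard in 1 stretch that share tags. The other is the Srebf1 region at a low level, so the 16% rests on 1 stretch of each of these genes. All other genes with a called region had it away from the start.

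The other genes of the pathway were read from lists chosen by role, but with earlier results of these data known. Their shares below are therefore descriptions. Of 52 genes 49 were tested, 12 were higher and 4 lower in GrnKO, beside 9.54% higher and 4.88% lower over all gene sums, with a median log2 change of 0.26 against -0.0099 for all sums. On the authors' scaling the split was 14 higher and 0 lower, with a median of 0.45 against 0.18 for all sums. Over regions more than 1000 bp from a start site, 43 were tested with 10 higher and 2 lower (27.9% called against 17.8% of all sums). Their median was then 0.063 against -0.025. Among 14 other LXR targets 6 were higher and 0 lower with limma (median 0.26), beside the same 9.54% and 4.88%. Nceh1, a cholesteryl ester hydrolase of macrophages, went from 740.2 and 646 scaled tags in WT to 1880.2 and 1722 in GrnKO (log2 change 1.38, SE 0.12). Smpdl3a, a phosphodiesterase, went from 123 and 107 to 334 and 323 (log2 change 1.51). Both had GrnKO libraries far above WT.

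Apoc2, Apoe and Apoc1, neighbouring apolipoprotein genes of a single cluster, rose by 1.20, 0.87 and 0.73 on the log2 scale, and Scd2, a stearoyl-CoA desaturase, by 0.55. Apoe, Apoc1 and Scd2 were named after their values had been seen. The other 8 LXR targets did not pass, with log2 changes from -0.54 to 0.27.

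Of 11 tested PPAR targets 2 were higher and 1 lower (median 0.35), numbers too small to set apart from the 9.54% and 4.88% over all sums. Fabp5, a fatty acid binding protein, had 870.1 and 595 in WT and 2101 and 1727 in GrnKO (log2 change 1.40), and Plin2, the coat protein of lipid droplets, 337 and 226 against 786 and 621 (log2 change 1.34). Lpl, lipoprotein lipase, was lower, from 392 and 306 to 228 and 197 (log2 change -0.70, adjusted p = 0.015).

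Of 11 tested partners and cofactors of the receptors none was higher and Nrip1, a corepressor of nuclear receptors, was lower, with 4640.2 and 4777 against 3600.2 and 4021 (log2 change -0.31, adjusted p = 0.024). These counts lie near the 9.54% higher and 4.88% lower over all sums and are no result about the cofactors as a group. Of 13 genes of oxysterol and sterol handling 4 were higher and 2 lower (median 0.26), beside 9.54% and 4.88% over all sums. Lipa, the lysosomal acid lipase, rose by 1.24 on the log2 scale, Insig1, which retains the SREBP complex in the endoplasmic reticulum, by 1.27, and Soat1, which esterifies cholesterol, by 0.97. Npc1, the lysosomal cholesterol exporter, rose by 0.55 and was named after its value had been seen. Cyp27a1, which makes 27-hydroxycholesterol, went the other way (log2 change -0.76, adjusted p = 0.0019), as did Scap, the escort of SREBP (log2 change -0.92, adjusted p = 0.0066).

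**Figure D4:**
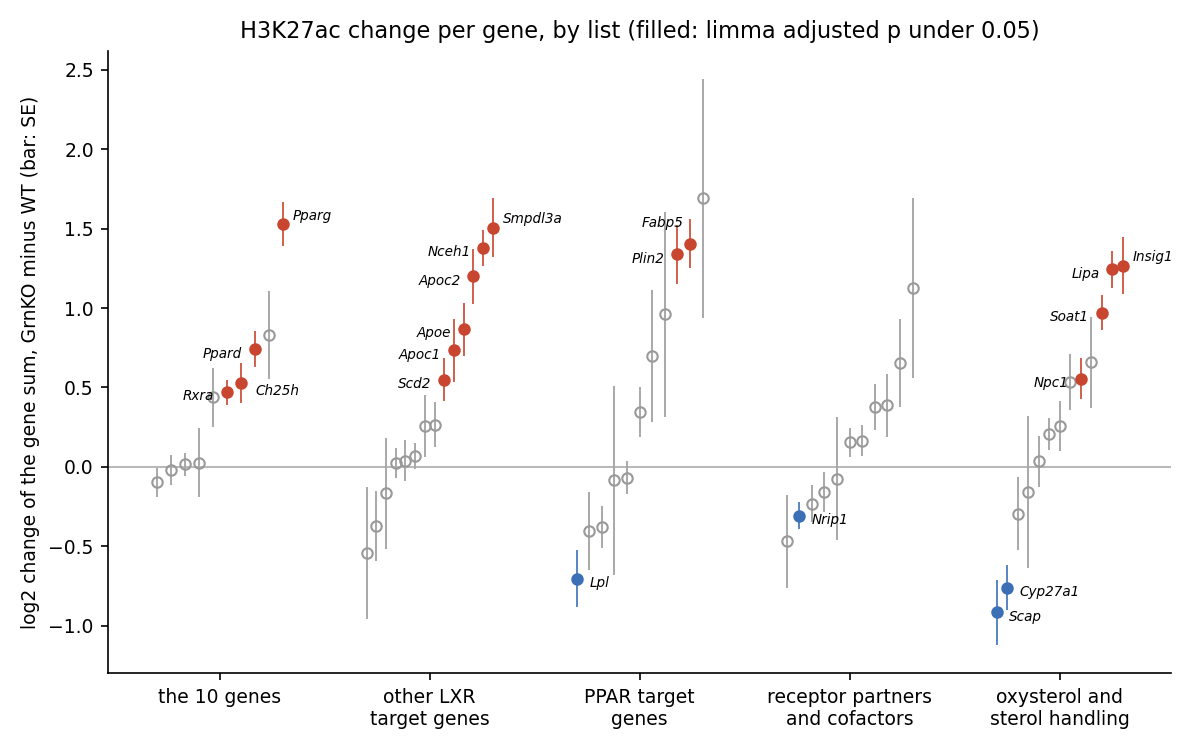
Log2 change of the gene sum with its SE (y axis, GrnKO minus WT) for the 10 genes and the 4 lists, genes ordered by change within each list; filled red higher and filled blue lower at limma adjusted p under 0.05, with their names. Of the 49 genes tested in the 4 lists 12 are filled red and 4 blue, and on the authors' scaling none is lower.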

How the data were processed

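The deposited table holds signal in tags per 800 bp region, counted with HOMER in merged reproducible ATAC-seq peaks and scaled by the authors to 10000000 tags per library, per the file headers. The build is mm10, and Bowtie2, HOMER and DESeq2 are named in the submitters' processing notes. The authors' values are whole numbers of read ends (2 per tag, 100% of values within 0.05 of a read end), so tags per library were recovered from them. TMM factors were computed on recovered tags with edgeR 4.0.16 (R 4.3.3), separately for regions and for gene sums (0.825 and 0.845 for WT replicate 1), so a printed sum differs slightly from the total of its printed regions. The main test was limma 3.58.1 (trended) on log2(signal + 1) with genotype as the only term, over the 4 H3K27ac libraries and all regions kept by filterByExpr (minimum 10 tags), two-sided, with Benjamini-Hochberg adjustment over all features tested. Fold changes are on this log2 scale, which understates changes of low regions. Inputs were not subtracted.

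Gene sums add all regions the table assigns to a symbol by nearest start, overlapping ones included. Regions named are the one nearest a start, the one with the highest mean and up to 3 called per direction; from each list, up to 3 genes per direction with the smallest p; and for 3 called genes, the 2 genes of most like values. Every other region or gene named, markers apart, was chosen after its values were seen. The 10 genes and the lists were chosen with earlier results of these data known. Alternatives to the main test (edgeR's quasi-likelihood test, DESeq2 1.42.0, pseudocounts of 0.5 and 5, no filter, a replicate block, each library left out, other region sets) are given in the closing section. Libraries differed beyond sampling noise (chi-square per degree of freedom 5.56 in WT, 3.54 in GrnKO), and 3 tags, the limit for a count of 0, equal 1.50 to 1.94 scaled tags. Each pool is a separate set of mice. The p-values of limma rest on the spread between the 2 pools of each genotype, moderated by the trend of that spread over all features tested. The fits were tested on simulated data.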

Additional observations from a re-analysis of the deposited data

How the results depend on the processing

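Of 593 single log2 changes recomputed under an alternative, 528 kept their direction and side of the threshold. Another 16 reached the call, 24 lost it and 25 changed direction. Counts of called features are given separately below. These include 21 called results, the called sums of the 10 genes and the called regions named by the rule given above. Of their 243 alternatives, 219 kept both, 24 lost the call and 0 changed direction. Called genes of the lists and called regions named after their values had been seen are not among the 21. All 29 called regions stayed positive under every setting and stayed called with the authors' scaling, edgeR, both pseudocounts and the block, 28 with DESeq2 and 24 with no filter; with 1 library left out 15 to 27 stayed called. With an adjusted p under 0.1, 45 regions of these genes (42 higher, 3 lower) and 11705 of all regions (7535 higher, 4170 lower) were called. With 1 library left out the counts ranged from 15 to 53 for these regions, 2171 to 13647 for all regions, 3 to 6 for the 10 sums, 953 to 3419 for all sums and 12 to 23 for the listed genes; a library left alone in its group is assumed to vary like the other group.

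When same-numbered libraries were blocked together (replicate block), 39 regions of these genes (36 higher, 3 lower), 11391 of all regions and 5 of the 10 sums were called. Over all tested regions same-numbered libraries hardly deviated together (r = 0.034), although their Xist and Y-chromosome signal was alike by number; the labels do not say what the numbers share. The 5th sum was Nr1h3, and the 3 lower regions were 1 each of Rxra, Abcg1 and Mylip.

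Only values that were not called turned sign. On the authors' scaling these were the sums of Abcg1 (0.17) and Mylip (0.092), the Abca1 regions at the promoter (0.089) and at -27.04 kb (0.13), and the promoters of Abcg1 (0.19) and Rxra (0.047). The Pparg promoter was -0.13 with edgeR and -0.0051 with a pseudocount of 5, and the Nr1h2 sum was -0.21 without overlapping regions. With 1 library left out the Abca1 sum ranged from -0.020 to 0.066, the Abcg1 sum from -0.021 to 0.0041, the Abca1 promoter from -0.29 to 0.043, its upstream region from -0.35 to 0.18, the Abcg1 promoter from -0.18 to 0.15, the Pparg promoter from -0.64 to 0.75, the Nr1h3 start region from -0.53 to 0.024, and the Rxra promoter and strongest region from -0.36 to 0.040 and from -0.061 to 0.28. The promoter to distal change ranged from -0.24 to 0.012 for Abca1, -0.067 to 0.15 for Abcg1 and -0.087 to 0.89 for Srebf1. The cause was not tested in any of these. With 2 libraries a group and 15491600 to 20030800 tags, low regions such as those of Srebf1 and the Pparg promoter are limited by few tags, and the set of called regions depends on each GrnKO library.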

Other observations

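Apart from Ppard, regions inside these genes that the table assigns to a neighbour were few. Altogether there were 34 in 6 genes, 25 were tested and none was called by limma. This way of summing was added after the data had been seen. In Nr1h3 both such regions are promoters of the adjoining genes: that of Madd (chr2:91183591-91184391) had 136 and 115 scaled tags in WT and 103 and 105 in GrnKO, and that of Acp2, a lysosomal acid phosphatase (chr2:91202502-91203302), had 118 and 120.5 against 113 and 111. With them the Nr1h3 sum was 310.3 and 334 in WT and 385 and 337 in GrnKO, with a log2 change of 0.16 (adjusted p = 0.571). The sum of Pparg stayed called with its 1 such region added (log2 change 1.52), while Rxra had none to add.

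The genes whose 4 library values were most like those of the called receptors were found by Euclidean distance between log2 gene sums, each centred on its own mean, over the 4 libraries. Nearest to Pparg were Pld3, a lysosomal phospholipase D family member (distance 0.072), and Nup50, a nucleoporin (0.083). Pld3 had 129 and 149 scaled tags in WT and 438 and 364 in GrnKO. Nearest to Ppard were Atg7, which acts in autophagosome formation (0.031), and Osbpl8, an oxysterol-binding protein relative (0.031). Atg7 had 814 and 854 against 1440.2 and 1332. Nearest to Rxra were Tbc1d2b (0.0065) and Med22 (0.023), with 1197 and 1188 against 1630.2 and 1665 for Tbc1d2b. With 4 libraries in 2 groups, likeness mostly restates a like difference between the genotypes.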
